A study of Mus musculus with 8 samples.

Results

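Choroid plexus epithelial nuclei were 100 of the 48468 barcodes kept in single-nucleus RNA sequencing of perilesional mouse forebrain. They were chosen by their counts of unique molecular identifiers (UMIs, one per captured RNA molecule). A nucleus had at least 5 UMIs of Ttr and at least 1 UMI of at least 2 of the 7 markers Htr2c, Folr1, Kl, Slc4a5, Otx2, Clic6 and Prlr. It had at most 1 UMI of the neuron genes Rbfox3, Snap25 and Syt1 together and 0 of Mog, Aqp4, Cx3cr1 and Flt1, which mark oligodendrocytes, astrocytes, microglia and endothelium. Barcodes under 500 UMIs, under 300 genes or over 5% mitochondrial UMIs had been dropped before, which removed 4922 of 53390. These 15 genes chose the nuclei, so their values are given below as a description, with no test.

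Donors were male mice of the Swiss Webster strain, 10 weeks old. By the labels, 2 biological replicates with 1 library each make up every group, and the 4 groups are control, BCAS alone, traumatic brain injury (TBI) alone, and BCAS+TBI. BCAS is not spelled out there, but the title of the study links the work to cerebral hypoperfusion. How long after surgery tissue was taken is not given, nor whether a library holds 1 mouse or several. The design asks what each surgery does alone and whether hypoperfusion changes the outcome of injury. Comparisons were made over libraries, because nuclei of 1 library share their source.

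The choroid plexus is a vascular fold in each brain ventricle, covered by a single layer of epithelium that joins the ependyma at its base. Its cells secrete cerebrospinal fluid by moving sodium, chloride and bicarbonate from blood to ventricle, and tight junctions between them form the blood-cerebrospinal fluid barrier. They also make carrier proteins such as transthyretin (Ttr) and take up vitamins, hormones and ions for the brain, and in the adult they carry tufts of cilia.

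Control 1 gave 13 such nuclei and control 2 gave 8, BCAS 1 and 2 gave 14 and 11, TBI 1 and 2 likewise 14 and 11, and BCAS+TBI 1 and 2 gave 11 and 18. They held 251935 UMIs in all, 23687 to 38419 per library, so that 1 UMI in a library was worth 26.0 to 42.2 CPM (the UMIs of a gene scaled to 1000000 UMIs of these nuclei). A nucleus had a median of 2381.5 UMIs and 1552.5 genes, with a range of 511 to 4863 UMIs. None of their barcodes occurred among the kept barcodes of another library, and 0 had over 3 times the median UMIs of the choroid plexus nuclei of its library. No doublet caller was run, and the limits on genes of other cell types stand in its place.

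By their total UMIs the libraries formed 2 sets that cross the groups. Set 1 is replicate 1 of control, BCAS and TBI with replicate 2 of BCAS+TBI, and set 2 is the rest. All other kept barcodes had medians of 3528 to 4212 UMIs in set 1 and 5663 to 6828 in set 2. In choroid plexus nuclei, mitochondrial UMIs made up 0.865% to 1.25% of UMIs in set 1 and 0.197% to 0.484% in set 2. What separates the sets is not given by the labels.

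Lists of genes of other cell types held from 6 to 418 UMIs in the 100 nuclei. The 9 ependymal genes in the files held the most, 1659 CPM against 153 CPM in all other kept barcodes, and 387 of their 418 UMIs were of Spag16, which is also on the cilium list. Foxj1 and Dynlrb2 had 9 UMIs each, Nnat 8, Mia 3, Tmem212 and Ccdc153 1 each, and Rarres2 and Vim 0. The endothelial list of 10 genes had 6 UMIs in all, with Pecam1, Cdh5 and Kdr at 0. The 10 fibroblast genes held 63 UMIs, 250 CPM against 84.3 CPM in other barcodes. Of these UMIs 46 were of the transporter Slc6a20a and 14 of Pdgfra, whereas Dcn had 2, Col1a2 had 1 and the other 6 genes, Col1a1, Col3a1 and Lum among them, had 0. The 10 macrophage and microglia genes held 28 UMIs, 111 CPM against 164 CPM in other barcodes. Of these genes 5 had UMIs and 5 had 0, among the latter Ptprc, a marker of all leukocytes. With 0 of 251935 UMIs, the limit that a count of 0 allows (3 UMIs) is 11.9 CPM, for counting error only. The 10 genes of the oligodendrocyte list summed to 381 CPM against 1210 CPM in all other kept barcodes, with St18, Prr5l and Ugt8a at 0. The astrocyte list had 373 against 934 CPM, of which the amino acid transporter Slc7a10 had 198 CPM. The excitatory neuron list had 449 against 3320 CPM, of which the homeobox factor Cux2 had 254 CPM, and Syt1 of neurons, limited by the rule, had 143 against 2905 CPM. By library, the astrocyte list had 591 and 746 CPM in control 1 and 2 and 182 to 445 CPM in the other groups. The oligodendrocyte list had 507 and 580 CPM in control 1 and 2 and 91.0 to 474 CPM in the other groups. For the excitatory neuron list control had 169 and 746 CPM and the other groups lay between, at 312 to 667 CPM. The part of these RNAs in the results that follow, comparisons against control among them, was not tested. Of the nuclei, 49 had no UMI of 14 further genes of other cell types.

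The limits on other cell types decided how many nuclei were found. Without them the Ttr and marker criteria took 407 barcodes, of which 307 (75.4%) failed: 73 on the neuron genes alone, 112 on the glial and vascular genes alone and 122 on both. In those 307 barcodes the choroid plexus genes were lower, with Tmem72 at 304 CPM against 1012 CPM in the 100 nuclei and Enpp2 at 2730 CPM against 9356 CPM. At the edge of the rule, 6 nuclei with 5 or 6 Ttr UMIs were inside and 8 barcodes with 3 or 4 were outside, all else being met. Likewise 4 nuclei had exactly 2 of the 7 markers, and 4 barcodes with 1 marker and 1 with none were outside. At the other end 24 nuclei had 6 of the 7 markers and 11 had all.

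Ttr, the carrier of thyroid hormone and retinol-binding protein, had 5 to 63 UMIs per nucleus with a median of 13, which was 0.202% to 10.1% of a nucleus' UMIs. The median was 0.577%. The 2 highest values, 10.1% and 9.59%, were of nuclei with only 624 UMIs (BCAS 2) and 511 UMIs (BCAS+TBI 2). These nuclei held 63 of the 222 Ttr UMIs of BCAS 2 and 49 of the 374 of BCAS+TBI 2. By library, with replicate 1 before replicate 2 here and below, control had 7472 and 4517 CPM, BCAS 7881 and 6000, TBI 9500 and 4131, and BCAS+TBI 4702 and 10778. All 4 libraries of set 1 stood above all 4 of set 2, while the surgical groups overlapped. The rule's floor of 5 Ttr UMIs is a larger part of the UMIs of a shallower nucleus. By library, these nuclei had medians of 1855.5 to 2920.5 UMIs in set 1 and 2620 to 3282 UMIs in set 2. The part of the floor in the difference between sets was not tested. In all other kept barcodes Ttr stood at 42.03 to 97.1 CPM in set 1 and 13.99 to 30.01 CPM in set 2, so it was higher in set 1 there as well, as the plot of shares and Ttr shows.

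Htr2c, the serotonin 2C receptor, had the lowest coefficient of variation over libraries among the 8 choroid plexus genes of the rule, from 10868 CPM in TBI 2 to 17439 CPM in TBI 1, with a median of 12889 CPM. Prlr, the prolactin receptor, ranged from 485 CPM in BCAS+TBI 1 to 1557 CPM in TBI 2, and Clic6, a chloride intracellular channel protein, from 445 to 879 CPM. Otx2, the homeobox factor that specifies this epithelium, ranged from 243 CPM in BCAS+TBI 1 to 802 CPM in control 1. The values of Otx2 were lowest in BCAS+TBI 1 and TBI 1 and at 477 CPM or more in the other 6 libraries. Kl, the anti-ageing protein klotho, ranged from 286 to 757 CPM, and Slc4a5, a sodium bicarbonate cotransporter, from 169 to 573 CPM. Folr1, the folate receptor, had the largest ratio of highest to lowest library among the 8 choroid plexus genes of the rule, from 82.9 CPM in control 2 to 703 CPM in TBI 1.

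**Figure D1:**
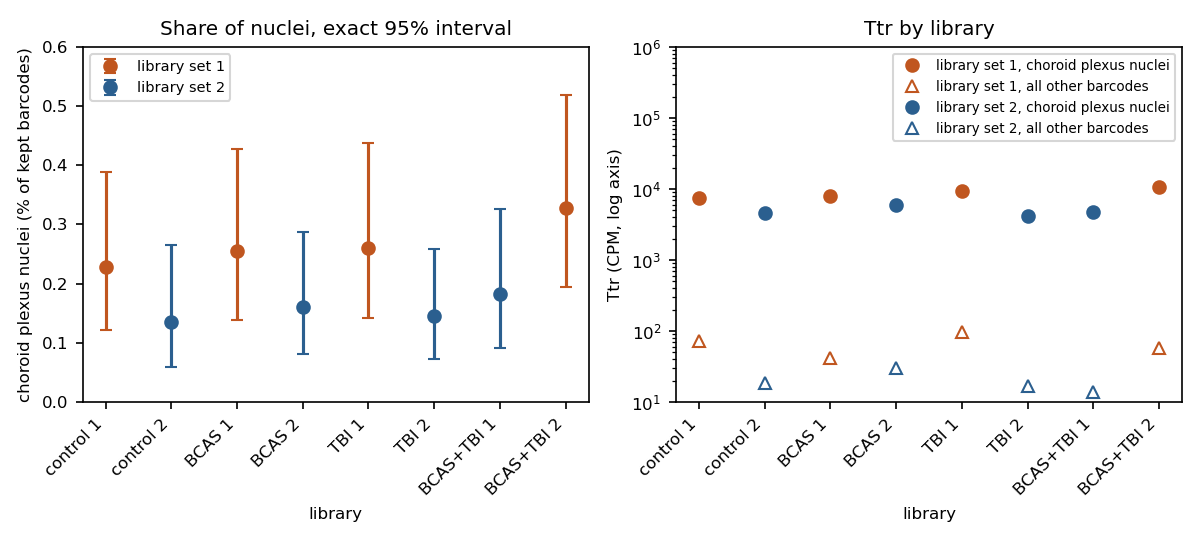
Left, the share of choroid plexus nuclei among kept barcodes in each library with its exact binomial 95% interval; right, Ttr in CPM on a log axis, in choroid plexus nuclei (filled circles) and in all other kept barcodes (open triangles). Libraries of set 1 have shares of 0.227% to 0.329% and those of set 2 have 0.135% to 0.183%, and Ttr is higher in set 1 in both kinds of barcode.

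Genes that the rule did not read also marked the nuclei strongly. Of genes at 100 CPM or more, Defb9, a beta-defensin, had the largest fold over all other kept barcodes, at 103 CPM against 0.249 CPM, followed by the lactate transporter Slc16a8 (171 against 0.428 CPM) and the paracellular cation channel Cldn2 (194 against 0.525 CPM). The potassium channel subunit Kcne2, the nucleoside transporter Slc28a3, the osmosensitive channel Trpv4, the cadherin Cdh3 and the homeobox factor Msx1 were among the first 25. So were the cilium genes Drc7, Gmnc, Nek5, Spag16 and Ccdc114. These folds describe nuclei picked for choroid plexus genes and carry no test. The plot of genes by role sets these levels beside those of all other barcodes.

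**Figure D2:**
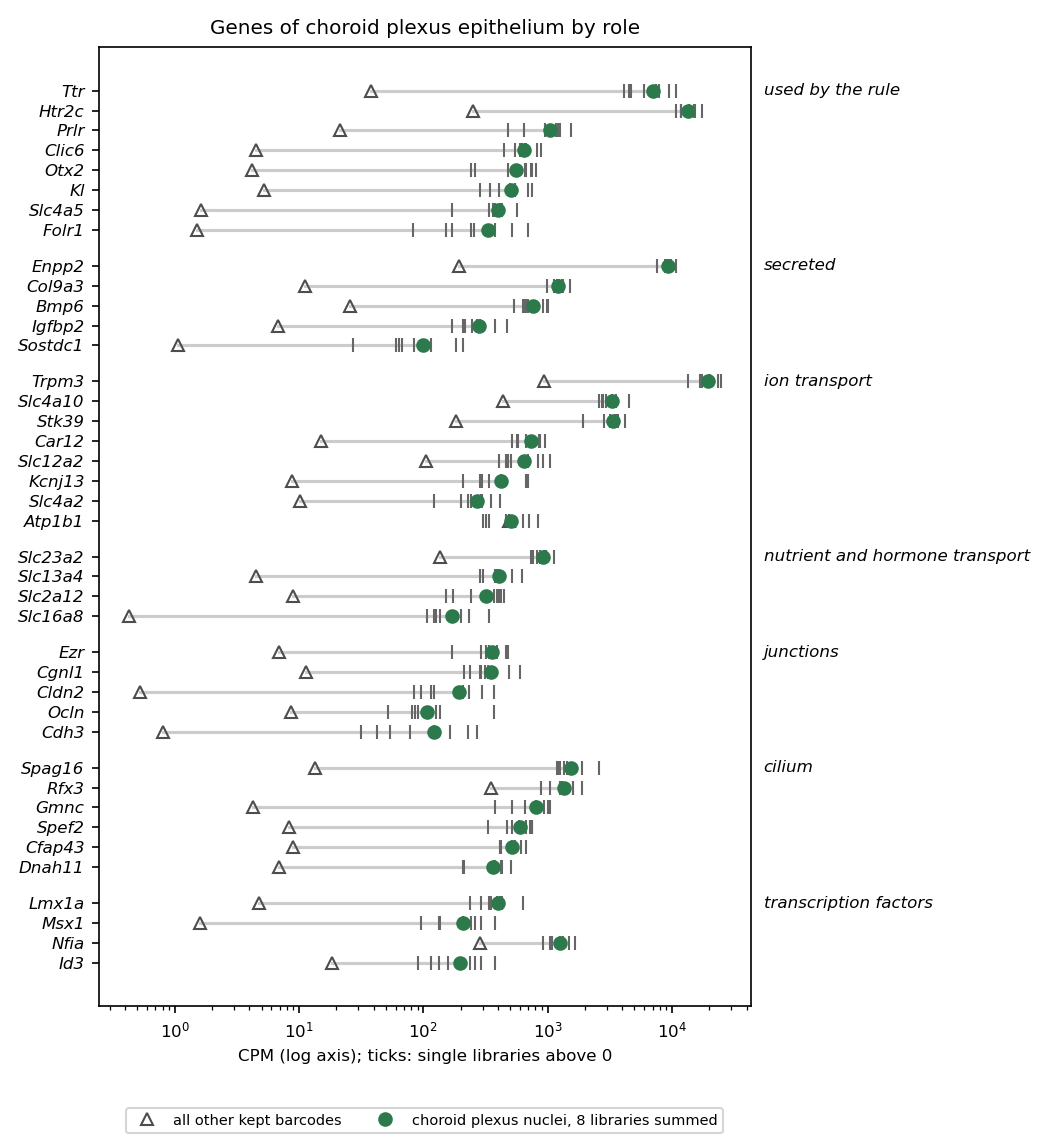
CPM (log axis) of 40 genes by role in choroid plexus nuclei summed over 8 libraries (filled circles), in single libraries above 0 (ticks) and in all other kept barcodes (open triangles). Circles lie right of triangles, except that the 2 symbols nearly meet for Atp1b1.

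Of the 29 genes listed as secreted by choroid plexus or into cerebrospinal fluid, 14 were at least 2-fold higher than in all other kept barcodes. Enpp2, autotaxin, which makes lysophosphatidic acid, led this list with 9356 CPM against 195 CPM. Control libraries had 9288 and 9697 CPM, BCAS 9843 and 8811, TBI 10724 and 9914, and BCAS+TBI 7644 and 8934. The spread was small, and BCAS+TBI 1 was the lowest. Col9a3, a collagen chain, had 1222 CPM against 11.1 CPM, the growth factor Bmp6 had 766 against 25.7 CPM, and Igfbp2, a binding protein of insulin-like growth factors, had 282 against 6.76 CPM. Rbp4 had 0 UMIs.

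Ion and water transport held 30909 CPM in all over 33 genes, against 3388 CPM in all other barcodes. The sum was 24266 to 30544 CPM in set 1 and 31491 to 36892 CPM in set 2, so the sets did not overlap. Trpm3, a cation channel whose gene also hosts a microRNA, had 19600 of these. By library Trpm3 ranged from 13574 CPM in BCAS+TBI 2, of set 1, to 24865 CPM in BCAS 2, of set 2, with a median of 19869 CPM. It had at most 19889 CPM in set 1 and at least 19849 CPM in set 2. Stk39, the kinase SPAK that phosphorylates cation-chloride cotransporters, had 3338 CPM against 182 CPM, and Slc4a10, the basolateral sodium bicarbonate transporter, had 3283 against 435 CPM. Car12, a membrane-bound carbonic anhydrase, had 734 CPM, the inward rectifier Kcnj13 had 421 CPM and the anion exchanger Slc4a2 had 270 CPM, against 15.1, 8.81 and 10.3 CPM.

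Slc12a2, the NKCC1 cotransporter of the apical membrane, had 651 CPM against 105 CPM. Atp1b1, a beta subunit of the sodium pump, was at nearly the same level as in other barcodes, with 508 against 492 CPM. Aqp1, the apical water channel used as a protein marker of this epithelium, had only 9 UMIs, from 6 of the 8 libraries. Of the list, 16 of 33 genes were at least 2-fold higher than in other barcodes and 10 were lower.

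Transporters of nutrients and hormones had 24 of 38 genes at least 2-fold higher, with a sum of 5642 to 6879 CPM per library. Slc23a2, a vitamin C transporter, had 913 CPM against 138 CPM, and the sulfate transporter Slc13a4 had 405 against 4.51 CPM. The organic anion transporters Slco1c1 and Slco1a4 had 401 and 373 CPM. Slc46a1, the proton-coupled folate transporter, and the endocytic receptor Lrp2 had 0 UMIs. Among metal genes the zinc transporter Slc39a12 had 532 against 33.2 CPM and the copper pump Atp7a had 353 against 46.3 CPM.

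Of 28 junction and polarity genes, 18 were at least 2-fold higher than in other barcodes. Cldn2, Cldn1, Tjp3, Ezr and Cgnl1 belonged to these. Ezr, the linker of microvilli to actin, had 357 CPM against 6.88 CPM. The scaffold Tjp1 had 83.4 against 407 CPM and N-cadherin (Cdh2) 87.3 against 339 CPM, both lower than in other barcodes.

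Of the 49 cilium genes in the files, 35 were at least 2-fold higher than in all other kept barcodes, 25 of them at least 10-fold, while 9 were lower and 8 of these had 0 UMIs. Summed over the list, control had 9203 and 10401 CPM, BCAS 9606 and 9649, TBI 9474 and 10836, and BCAS+TBI 11103 and 10231. Spag16, a protein of the central pair of microtubules, had 1536 against 13.4 CPM. Gmnc, which starts the multiciliated programme, had 806 against 4.26 CPM, and Rfx3, a transcription factor of cilium genes, had 1346 against 348 CPM.

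Ependymal nuclei, the ciliated neighbours of this epithelium, were taken as barcodes with at least 3 of 6 ependymal markers, at most 1 neuron UMI and under 5 Ttr UMIs. There were 24, with a cilium sum of 16841 CPM against 10066 CPM in choroid plexus nuclei. Spag16 was close in the 2 kinds (1182 and 1536 CPM), whereas Gmnc had 15.4 CPM in ependymal nuclei, which rests on very few UMIs. Hydin, of the central pair, had 568 CPM in ependymal against 159 CPM in choroid plexus nuclei. The regulators Mcidas and Ccno and the dynein heavy chains Dnah5 and Dnah12 had 0 UMIs in choroid plexus nuclei. Foxj1 had 9 UMIs. These 24 nuclei were themselves picked by cilium-related markers, and no test was made. No limit on glial or vascular genes was set for them. They held 1520 CPM of the endothelial, 1643 CPM of the erythroid and 2548 CPM of the astrocyte list. All kept barcodes other than choroid plexus nuclei held 157, 284 and 934 CPM, so RNA of other cell types is part of this comparison.

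Because most cilium genes were high, their promoters were searched for the letters GTTGCC, the core of the RFX factor motif, on either strand (GGCAAC on the other) in the 250 bases before each start site. The sequences are those of RefSeq for GRCm38.p6, matched by symbol, and 43 of the 49 cilium genes had one. At least 1 match stood before 14 of the 43 genes (32.6%), against 3195 of 27025 genes (11.8%) of the whole table. Genes with a match included Mcidas, Ccno and Cdhr3, which had no UMI in choroid plexus nuclei. Whether a match goes with the level of a cilium gene in these nuclei was not tested. Of the 25 leading genes, 18 had a sequence, and 5 of the 18 (27.8%) held a match: Spag16, Nek5, Kcne2, Defb9 and Rbm47. The OTX core TAATCC, whose letters are unlike it, stood before 2 of the 43 (4.65%) and before 1 of the 18 leading genes (5.56%), against 7.21% of all genes. A match is a description of the letters and no site of binding. Shown here are promoters of 3 cilium genes and of Kcne2, with the RFX core in capitals, because they place it in genes whose levels are given here.

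Spag16, chr1:69826720-69826969, plus strand: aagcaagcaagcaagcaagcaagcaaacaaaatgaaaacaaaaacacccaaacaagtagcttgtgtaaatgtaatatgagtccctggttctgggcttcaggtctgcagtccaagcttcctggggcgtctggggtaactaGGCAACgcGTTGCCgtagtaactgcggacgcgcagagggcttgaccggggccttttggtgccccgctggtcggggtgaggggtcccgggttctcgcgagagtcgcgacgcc

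Cfap44, chr16:44394549-44394798, plus strand: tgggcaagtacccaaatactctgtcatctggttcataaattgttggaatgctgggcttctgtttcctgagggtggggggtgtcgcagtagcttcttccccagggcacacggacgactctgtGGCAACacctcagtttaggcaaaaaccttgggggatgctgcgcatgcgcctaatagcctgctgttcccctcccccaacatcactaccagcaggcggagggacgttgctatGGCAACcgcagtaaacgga

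Hydin, chr8:110266727-110266976, plus strand: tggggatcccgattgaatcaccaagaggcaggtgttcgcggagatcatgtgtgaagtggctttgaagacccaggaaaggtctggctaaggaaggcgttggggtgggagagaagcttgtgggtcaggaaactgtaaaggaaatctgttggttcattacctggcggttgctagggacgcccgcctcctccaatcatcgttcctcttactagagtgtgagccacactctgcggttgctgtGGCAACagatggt

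Kcne2, chr16:92292139-92292388, plus strand: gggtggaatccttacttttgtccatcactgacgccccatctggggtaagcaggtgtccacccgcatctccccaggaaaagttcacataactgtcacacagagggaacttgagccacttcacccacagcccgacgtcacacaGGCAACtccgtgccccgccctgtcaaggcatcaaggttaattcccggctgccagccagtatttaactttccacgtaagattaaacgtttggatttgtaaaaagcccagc

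Spag16 has 2 matches on opposite strands, the first beginning 111 bases and the second 103 bases before the start site. Cfap44 has 2, and Hydin and Kcne2 have 1 each. Cfap44, a protein of the ciliary axoneme, had 484 CPM in choroid plexus nuclei against 16.6 CPM in all other barcodes. Kcne2 had 135 against 0.564 CPM.

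Transcription factors of position set the nuclei apart from other barcodes in part. Lmx1a, which specifies the dorsal midline from which the plexus arises, had 100 UMIs and 397 CPM against 4.73 CPM, and Msx1, a target of bone morphogenetic protein signals, had 210 against 1.60 CPM. The 10 Hox genes and antisense RNAs of the list that the files hold, which mark hindbrain origin, had 0 UMIs, as had Lmx1b, En2 and Gbx2. Emx2 of the dorsal forebrain had 6 UMIs.

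Among receptors, Notch2 had 607 CPM against 19.1 CPM, the transforming growth factor beta receptor Tgfbr2 had 282 against 17.3 CPM, and the leptin receptor Lepr had 139 against 8.92 CPM. Erbb4 had 1556 against 1203 CPM. Of 58 receptor genes, 18 were at least 2-fold higher and 29 lower than in other barcodes. Their sum was 6138 to 7509 CPM in set 1 and 7703 to 9088 CPM in set 2, without overlap.

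Genes of inflammation and interferon were sparse. Of the 57 in the files 33 had 0 UMIs in all 8 libraries, among them the acute-phase gene Lcn2, Il6, Il1b, Tnf, Ccl2 and Cxcl10. The whole list held 138 UMIs, led by the adhesion receptor Vcam1 with 34 UMIs, and no gene of it had enough counts to be tested. Summed, control had 380 and 456 CPM, BCAS 676 and 541, TBI 807 and 508, and BCAS+TBI 425 and 490. Both control libraries lay below both BCAS and both TBI libraries, while BCAS+TBI overlapped control. As 1 UMI in a library was worth 26.0 to 42.2 CPM, each sum rests on few UMIs with a large counting error. Sums of other lists parted by group too. Metal handling had 1773 and 1699 CPM in control 1 and 2 and 1843 to 2378 CPM in the other groups. The astrocyte and oligodendrocyte lists were higher in both control libraries than in every other library, as given above. How often single genes part in this way by group was not counted. These sums were not tested, and at this depth a change in single genes of the list was not detectable. The immediate early list held 84 UMIs and the stress list 428 UMIs, and none of their genes could be tested either.

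The share of choroid plexus nuclei asks whether a surgery changed how many were recovered. It was 0.227% (exact Clopper-Pearson 95% interval 0.121% to 0.389%) and 0.135% (0.0583% to 0.266%) of kept barcodes in control 1 and 2. BCAS 1 and 2 had 0.255% (0.139% to 0.427%) and 0.161% (0.0803% to 0.288%), and TBI 1 and 2 had 0.261% (0.143% to 0.437%) and 0.144% (0.0721% to 0.258%). BCAS+TBI 1 and 2 had 0.183% (0.0912% to 0.327%) and 0.329% (0.195% to 0.519%). The intervals cover counting error only.

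The 4 libraries with TBI surgery averaged 0.229% ± 0.0820 and the 4 without 0.194% ± 0.0559 (SD, n = 4, exact two-sided permutation p = 0.486). With BCAS surgery the mean was 0.232% ± 0.0760 and without it 0.192% ± 0.0619 (SD, n = 4, exact two-sided permutation p = 0.429), and both adjusted values were 0.486. The smallest p that 70 assignments allow is 0.0286. Within sets, the difference for TBI was 0.0536 points in set 1 and 0.0157 in set 2, and for BCAS 0.0475 and 0.0321 points. All 4 shares of set 1, from 0.227% to 0.329%, lay above all 4 of set 2, from 0.135% to 0.183%. Depth and mitochondrial share differ between the sets as given above, and their part in the shares was not tested. Without the limits on other cell types the BCAS difference was -0.101 points (exact permutation p = 0.771). The shares of the sets then overlapped, at 0.727% to 1.42% in set 1 and 0.604% to 0.892% in set 2. Fewer nuclei in the tissue and less RNA per nucleus, which the UMI criteria would miss, cannot be told apart in these shares.

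Gene levels were compared over the 8 libraries with edgeR's quasi-likelihood test on summed counts, and 736 genes had enough UMIs. None of the 736 (percent called 0) passed an adjusted p of 0.05 in TBI, BCAS or BCAS+TBI against control, in BCAS+TBI against TBI or against BCAS, in the interaction, or in either surgery averaged over the other. An unadjusted p under 0.05 was found in 19 to 31 genes per comparison (2.58% to 4.21%) with edgeR and in 0 to 6 with DESeq2, which made 0 calls as well. The medians of all 736 log2 fold changes lay between -0.02 and 0.03, and the median standard error was 0.53 for TBI against control and 0.36 for TBI averaged over BCAS. Genes named from here to the library sets are those with the smallest p-values and did not pass the test. Comparisons against control share the 2 control libraries. Leaving out a single library gave 1 or 2 calls in 6 of the 8 comparisons, all of Rbfox1, Sema6d, mt-Rnr2 or mt-Nd2.

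For TBI surgery averaged over BCAS, Grm8, a metabotropic glutamate receptor, had the smallest p-value. Control had 507 and 539 CPM, BCAS 440 and 676, TBI 312 and 191, and BCAS+TBI 212 and 144. The 4 libraries with TBI surgery (215 ± 71.0 CPM, SD, n = 4) were all below the 4 without (540 ± 99.3 CPM). The log2 fold change was -1.30 (SE 0.35, edgeR adjusted p = 0.604). Of the 736 genes, 7 (0.951%) lay wholly lower and 9 (1.22%) wholly higher with TBI surgery.

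Nav2, a cytoskeletal regulator of neurite growth, had 376 ± 128 CPM with TBI surgery and 729 ± 68.0 CPM without (SD, n = 4), and did not overlap. Cdh18, a cadherin of neurons, had 743 ± 184 CPM with and 354 ± 63.2 CPM without (log2 1.08, SE 0.30, edgeR adjusted p = 0.604). Grm8, Nav2 and Cdh18 are also present at 375, 622 and 735 CPM in all other kept barcodes, and without the limits on other cell types the log2 value of Cdh18 was -0.13.

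Dock1 and Mpp7 were genes higher in choroid plexus nuclei than elsewhere. Dock1, an activator of the GTPase Rac, had a level of 67.7 CPM in all other barcodes. In choroid plexus nuclei control had 84.4 and 124 CPM, BCAS 169 and 216, TBI 286 and 508, and BCAS+TBI 425 and 288. Its libraries with and without TBI surgery did not overlap (log2 1.38, SE 0.42, edgeR adjusted p = 0.654). As 1 UMI was worth 42.2 CPM in control 1 and 41.4 CPM in control 2, its low values rest on few UMIs with a large counting error. Mpp7, a scaffold of cell polarity, had 610 ± 82.2 CPM with and 371 ± 36.9 CPM without TBI surgery (SD, n = 4), with log2 0.74 (SE 0.30, edgeR adjusted p = 0.999). Its level in all other barcodes was 43.2 CPM.

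For BCAS surgery averaged over TBI, Slc12a2 had the smallest p-value. Control had 844 and 912 CPM, BCAS 507 and 405, TBI 703 and 1049, and BCAS+TBI 485 and 461. All 4 libraries with BCAS surgery (465 ± 43.9 CPM, SD, n = 4) were below all 4 without (877 ± 144 CPM). The log2 fold change was -0.92 (SE 0.27, edgeR adjusted p = 0.980), which does not pass over 736 genes. Of these genes 10 (1.36%) lay wholly lower and 8 (1.09%) wholly higher with BCAS surgery.

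With against without BCAS surgery, Slc12a2 had 484 against 774 CPM in set 1 and 445 against 980 CPM in set 2. Leaving out each library in turn gave log2 values from -0.99 to -0.79, and DESeq2 gave -0.91 (SE 0.43). Slc12a2 was picked by its p-value in these same libraries and did not overlap. Its direction within sets and without single libraries was therefore fixed beforehand and is no separate support. In the 407 barcodes taken without limits on other cell types the log2 value was 0.037, with Slc12a2 at 301 CPM in the 307 added barcodes. The anion exchanger Slc4a2 was a further gene without overlap, at 121 to 243 CPM in the 4 libraries with BCAS surgery and 290 to 416 CPM in the 4 without (log2 -0.75, SE 0.40, edgeR adjusted p = 0.980). Of the other genes in the plot by group, Atp7a was higher without overlap and 6 overlapped. The genes of the plot were chosen by hand, with Slc12a2 and Atp7a named for small p-values in these same libraries. How many of them part is therefore no measure of transport genes as a whole.

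**Figure D3:**
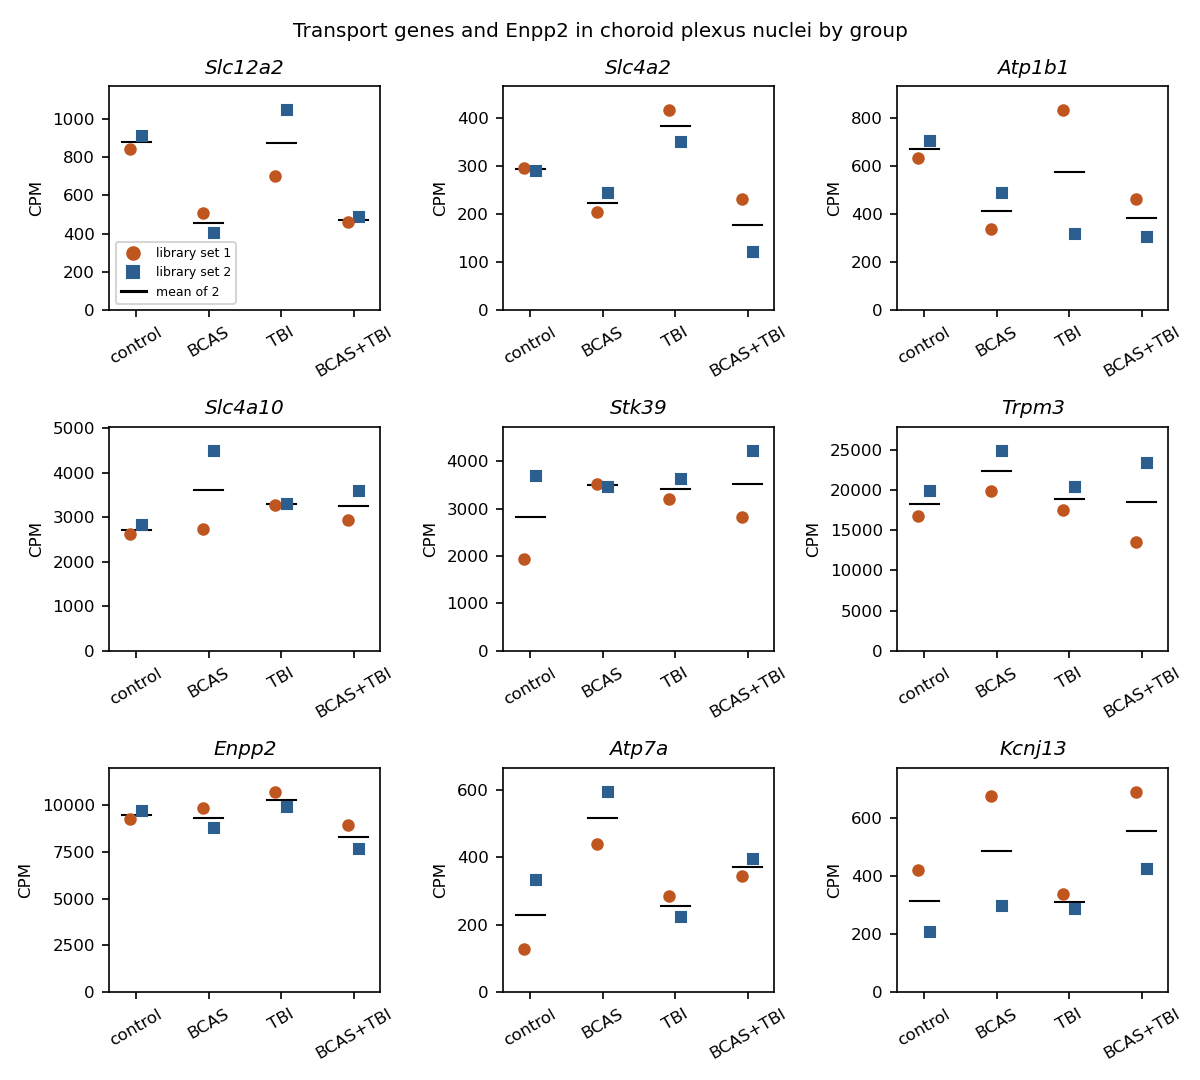
CPM in choroid plexus nuclei for 9 genes, by group, with 1 point per library (circles for library set 1, squares for set 2) and a line at the mean of 2. Slc12a2 and Slc4a2 are lower in every library with BCAS surgery than in every library without it, Atp7a is higher, and the values of the other 6 overlap. The genes were chosen by hand, Slc12a2 and Atp7a with their p-values known, and none passed the test. Of all 736 genes tested, 10 (1.36%) lay wholly lower and 8 (1.09%) wholly higher with BCAS surgery.

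Atp7a was among the higher genes, with 346 to 595 CPM with BCAS surgery and 127 to 331 CPM without (log2 0.83, SE 0.35, edgeR adjusted p = 0.980). Enah, which promotes actin filament growth, Spast, which severs microtubules, and Osbpl9, a lipid carrier, also did not overlap, with log2 values of 1.01, 0.98 and 0.92. Rnf152, a lysosomal ubiquitin ligase, had 201 ± 31.1 CPM with and 439 ± 188 CPM without BCAS surgery (SD, n = 4) and did not overlap. Phldb2, which anchors microtubules at the cell cortex, Drc7 and the nuclear receptor Esrrg had log2 values of -1.54, -1.01 and -0.68 and overlapped. Without the limits on other cell types the log2 values of Phldb2 and Rnf152 were 0.031 and 0.031.

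No gene of any list was called. Over all 736 genes, 351 were higher and 385 lower with BCAS surgery, and 369 higher and 367 lower with TBI surgery. Of 10 tested ion and water transport genes, 5 were higher and 5 lower with BCAS surgery (median log2 -0.0041, against -0.02 over all 736 genes), and 5 higher and 5 lower with TBI surgery (median 0.02, against 0.00039). Of 12 tested cilium genes, 4 were higher and 8 lower with BCAS (median -0.11) and 6 each way with TBI (-0.01). Of 8 secreted genes 6 were higher with BCAS (median 0.23) and 5 with TBI (0.013). Of 8 nutrient and hormone transporters 6 were lower with BCAS (median -0.32) and 7 with TBI (-0.079). Of 6 junction and polarity genes 5 were higher with BCAS (median 0.39) and 4 with TBI (0.16). Of 10 receptors 4 were higher with BCAS (median -0.11) and 6 with TBI (0.055). Without the limits on other cell types the medians with BCAS surgery were 0.25 for cilium genes and 0.13 for nutrient and hormone transporters. Among these transporters the sugar transporter Slc2a12 had log2 -0.84 (SE 0.35, edgeR adjusted p = 0.980).

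BCAS+TBI against TBI asks the question of the title within this epithelium. The lowest p-value was that of Esrrg, at 1213 and 980 CPM in BCAS+TBI and 3019 and 2002 CPM in TBI (log2 -1.17, SE 0.35, edgeR adjusted p = 0.999). The control and BCAS libraries lay between these pairs, at 1731, 1989, 1691 and 1757 CPM. In the interaction, Ube2h, a ubiquitin-conjugating enzyme, and Rock1, a kinase of the actin cytoskeleton, had log2 values of 2.24 (SE 0.81) and 2.25 (SE 0.82), with edgeR adjusted p = 0.993 for both. With 2 libraries per group, the median standard error of the interaction was 0.73 on the log2 scale.

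The library sets gave differences that passed the test. Fitted with the group as the other term, a comparison chosen after seeing the data, 30 of 736 genes (4.08%) differed at an adjusted p under 0.05, 23 higher in set 1 (3.12%) and 7 lower. In a principal component analysis of these counts the first axis held 27.8% of the variance and separated the sets, while each surgical group had 1 library on either side. The biology of the list is mixed, as the plot of set differences shows.

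**Figure D4:**
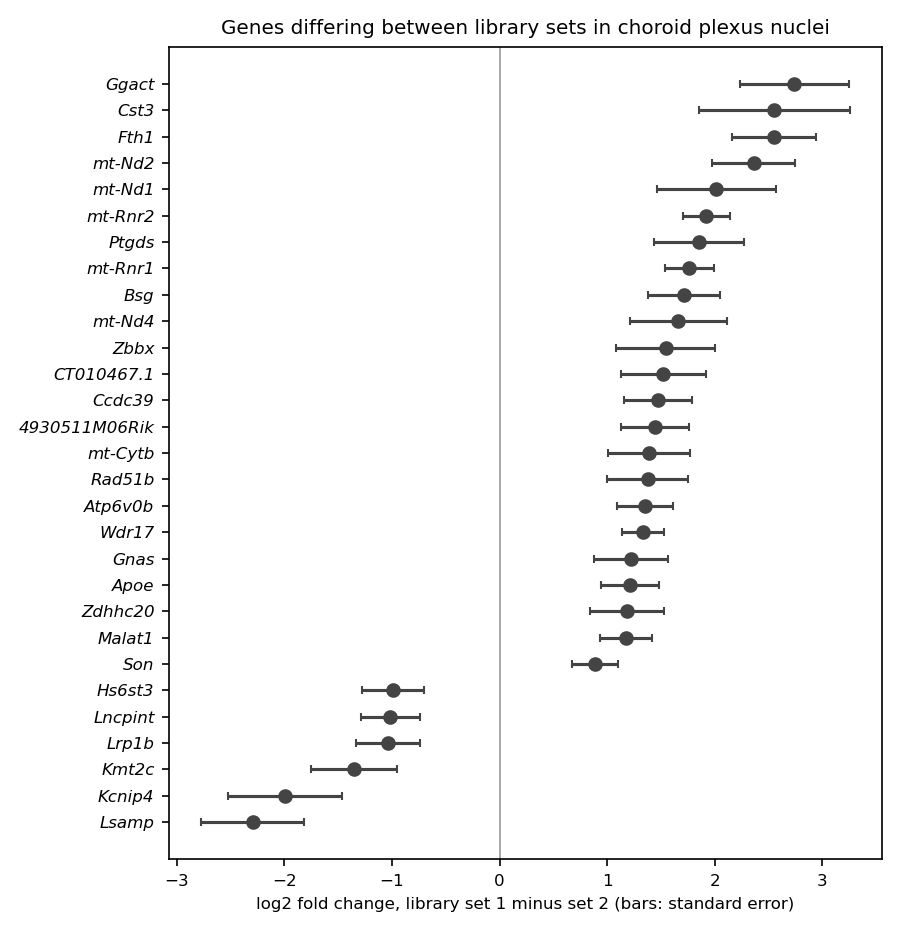
Log2 fold change of library set 1 minus set 2, with its standard error, for 29 of the 30 genes that differed at an edgeR adjusted p under 0.05 in choroid plexus nuclei. Mitochondrial RNAs, Fth1, Cst3, Ptgds and Apoe lie on the right (higher in set 1) and the neuronal genes Lsamp and Kcnip4 on the left.

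Mitochondrial RNAs were higher in set 1, with mt-Rnr2 at 5524 ± 700 against 1729 ± 683 CPM (SD, n = 4 libraries each; log2 1.92, SE 0.22, edgeR adjusted p = 1.86e-07). The mitochondrial share was also higher in set 1 in all other kept barcodes, as given above. Fth1, the ferritin heavy chain, had 505 ± 135 against 97.9 ± 18.6 CPM (log2 2.55, SE 0.39). Cst3, Ptgds and Apoe, whose products are secreted into cerebrospinal fluid, were higher by 2.55, 1.85 and 1.21 on the log2 scale. Bsg, the partner of lactate transporters, and Atp6v0b, a proton pump subunit, were higher by 1.72 and 1.35. The cilium genes Ccdc39 and Zbbx were higher by 1.48 and 1.54.

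The genes lower in set 1 included Lsamp, Kcnip4 and Lrp1b, which neurons express strongly. Lsamp had 79.9 ± 56.1 CPM in set 1 and 448 ± 186 CPM in set 2 (SD, n = 4 libraries each; log2 -2.30, SE 0.47, edgeR adjusted p = 0.00192). Their part in the other differences was not tested. The count of 30 became 10 without TBI 2, 11 without TBI 1, 15 without BCAS+TBI 2 and 16 without BCAS+TBI 1.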

How the data were processed

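The deposited files hold raw UMI counts per gene and barcode, not normalized; per the file headers Cell Ranger 7.0.0 wrote them, and the submitters' processing notes name Seurat and the builds GRCm38 and mm10. Nuclei were chosen by the stated rule, whose members, lists and tests were chosen with earlier results of these data known. Counts were summed per library (23687 to 38419 UMIs, shallow for single genes). edgeR 4.0.16 (R 4.3.3) with TMM scaling, filterByExpr at minimum count 10 and two-sided quasi-likelihood tests fitted the 4 groups over 8 libraries; Benjamini-Hochberg adjustment covered all 736 genes tested, at 0.05. The 15 rule genes count in library sizes and were not tested. Named genes are those of the lists, the 25 leading genes at 100 CPM or more, and per comparison the 5 higher and 5 lower genes with the smallest p-values (none passed), leaving out predicted and mitochondrial genes, except Slc4a2 and Slc2a12 values from the lists. Shares were compared by exact permutation, and scipy 1.17.1 gave their exact intervals. DESeq2 1.42.0 was an alternative. Tests were tried on simulated counts. Some genes are not reported here and are counted only in totals. Same-numbered libraries were compared by their deviations from the group mean in log CPM, which are equal and opposite within a group. These deviations correlated at 0.13 to 0.23 among control, BCAS and TBI and at -0.28 to -0.27 with BCAS+TBI. Same-numbered libraries therefore did not move together across all 4 groups. Among control, BCAS and TBI the number and the library set coincide, so pairing by number cannot be told apart from the sets there.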

Additional observations from a re-analysis of the deposited data

Results flagged for a closer look

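In library set 1, the median depth of choroid plexus nuclei in TBI 1 stood apart, at 2920.5 UMIs against 1884 in the nearest and 1855.5 in the lowest of the other 3 libraries. It was 1 of 36 groups of values checked for a sample far from the rest, and chance gives about 1 in 20. TBI 1 also held the largest number of UMIs in these nuclei, 38419.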

How the results depend on the processing

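The comparisons of surgeries gave 0 called genes under the alternatives other than leaving out a library, except that BCAS against control gave 1 with no filter on low counts (Rbfox1, higher). They were DESeq2, RLE scaling, no filter, a minimum count of 30, only the libraries of the groups compared (run for the 5 comparisons of 2 groups), thinning to the smallest total, genes at least as high as elsewhere, a block for library set, a replicate block and 5 other selections of nuclei. The replicate block gave 0 calls in each of the 8 comparisons. Leaving out each library in turn gave 0 to 1 calls in BCAS against control (Rbfox1, without BCAS 1, TBI 2, BCAS+TBI 1 or BCAS+TBI 2). It gave 0 to 1 in BCAS+TBI against control (Sema6d without control 2, mt-Rnr2 without BCAS+TBI 2) and 0 to 1 in BCAS+TBI against TBI (mt-Rnr2 without BCAS+TBI 2). It gave 0 to 2 in BCAS+TBI against BCAS (mt-Rnr2 and mt-Nd2 without BCAS+TBI 2) and 0 to 2 in the interaction (the same genes, or Rbfox1 without BCAS 1 or BCAS+TBI 1). It gave 0 to 1 in BCAS averaged over TBI (Rbfox1 without BCAS 1 or BCAS+TBI 2). A lone library in a group is then assumed to vary like the others. Library set 1 against 2 gave 10 to 31 calls without 1 library, 9 with DESeq2, 19 with no filter, 8 with a minimum count of 30 and 496 with no limit on genes of other types.

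The difference in share kept its direction for TBI throughout, at 0.0015 to 0.0629 points without 1 library. For BCAS it was 0.0075 to 0.0634 points without 1 library, and -0.101 points with no limit on genes of other types. That setting adds 307 barcodes and turned 17 named values (log2), whose cause was not tested. Against control, TBI gave Kalrn -0.28 and Slc35f1 0.36, BCAS gave Cacnb2 -0.29, Rnf152 0.34 and Phldb2 0.059, and BCAS+TBI gave Lrp1b -0.54, Tcf12 0.071 and Rnf152 0.63. BCAS+TBI against TBI gave Slc35f1 -0.12 and Armc2 0.16, and against BCAS it gave Cdh18 -0.58 and Iqub 0.0083. TBI averaged over BCAS gave Cdh18 -0.13 and Slc35f1 0.21, and BCAS averaged over TBI gave Slc12a2 0.037, Phldb2 0.031 and Rnf152 0.031. The other settings listed kept the direction of these genes. With 8 to 18 nuclei per library, 736 genes could be tested, and the genes of inflammation could not.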
